A study of Mus musculus with 13 samples.

Results

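Cell cycle and proliferation genes are genes whose products copy the DNA, separate the chromosomes or drive a cell from one of these steps to the next. A list of 51 such genes was followed. Where several probe sets name a gene, the one brightest on average across the 13 arrays was used. Of the 51 genes, 50 had a probe set that names only them, out of 18193 genes in all. The exception was Ccnb1, cyclin B1, which no probe set names. The 50 genes comprise 18 S-phase genes, 28 mitosis genes and 4 genes used in both phases (Mki67, Ccna2, Foxm1 and Mybl2), which were kept out of both lists.

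The study measured messenger RNA in liver tumours of mir-122 knockout mice and in livers of wild-type control mice, all of the B6/129 background strain. The microRNA mir-122 is made in large amounts by hepatocytes. There were 3 knockout tumours and 2 control livers at 11 months of age, and 5 knockout tumours and 3 control livers at 14 months. Each array carried 1 sample. No tumour-free liver of a knockout mouse was measured, so genotype and tumour cannot be told apart. The sources do not say that the tumours came from separate mice, nor which cells carry the deletion, and the titles of tumours 1 and 2 at 14 months differ only by a 2. The p-values therefore measure the spread between these samples, which may in part be technical. Levels are log2 values, so a difference of 1 is a doubling of signal.

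Adult hepatocytes rarely divide and lie in a resting state, from which they can return to the cycle after injury or in a tumour. At the start of S phase, E2F transcription factors released from the retinoblastoma family switch on genes for replication origins, nucleotide supply and the replication fork. Later, the MuvB complex with B-Myb and then FoxM1 switches on genes for mitosis. In resting cells the DREAM complex holds both sets down, through E2F sites and through a short element called the cell cycle genes homology region (CHR), often found with CCAAT boxes.

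The promoters of the genes carried these elements in different shares. RefSeq promoter windows (assembly GRCm38.p6, 250 bases before to 50 after each start) were given for 43 of the 51 genes. The E2F letters searched were TTCCCGC or TTCGCGC or TTGCCGC or TTGGCGC, the CHR letters were TTTGAA and TTCGAA, and the CCAAT box was CCAAT, each on both strands. Some matches overlap, such as E2F letters that share their last bases with a CCAAT box. E2F letters were in 12 of 17 windows of S-phase genes (70.6%), in 4 of 28 windows of mitosis genes (14.3%) and in 9.57% of all 32851 windows. CHR letters showed the reverse order, with 2 of 17 S-phase windows (11.8%), 21 of 28 mitosis windows (75.0%) and 19.2% of all windows. CHR and CCAAT letters stood together in 67.9% of mitosis windows, 11.8% of S-phase windows and 7.52% of all windows. The median GC content was 58.3% in S-phase windows, 58.7% in mitosis windows and 52.7% in all windows. These matches describe letters in a window and not sites shown to be bound.

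The 150 bases before the start are shown for the 5 genes that rose in the tumours with the ages combined (Rrm2, Mki67, Ect2, Bub1b and Ttk) and for Mcm6, a helicase gene with high levels in 2 of the controls. Capitals mark the letters of the motifs, on either strand, and each sequence runs 5′ to 3′ on the gene's strand. Of the 2 starts that RefSeq gives for Ect2, one is shown.
Mcm6 (chr1:128359706-128359855, minus strand): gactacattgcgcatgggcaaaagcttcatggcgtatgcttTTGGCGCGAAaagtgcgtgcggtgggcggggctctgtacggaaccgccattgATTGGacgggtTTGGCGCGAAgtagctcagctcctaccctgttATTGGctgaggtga
Rrm2 (chr12:24708104-24708253, plus strand): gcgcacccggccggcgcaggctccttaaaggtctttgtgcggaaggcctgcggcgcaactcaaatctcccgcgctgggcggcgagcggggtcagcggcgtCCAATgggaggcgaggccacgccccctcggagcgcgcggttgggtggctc
Bub1b (chr2:118598061-118598210, plus strand): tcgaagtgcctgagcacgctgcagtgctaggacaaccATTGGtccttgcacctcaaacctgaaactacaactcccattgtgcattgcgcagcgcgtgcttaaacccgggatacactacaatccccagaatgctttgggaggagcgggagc
Ttk (chr9:83834539-83834688, plus strand): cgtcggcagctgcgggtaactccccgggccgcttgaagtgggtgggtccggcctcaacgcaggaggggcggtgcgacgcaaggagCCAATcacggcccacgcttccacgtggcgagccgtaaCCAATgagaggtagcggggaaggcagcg
Ect2 (chr3:27153855-27154004, minus strand): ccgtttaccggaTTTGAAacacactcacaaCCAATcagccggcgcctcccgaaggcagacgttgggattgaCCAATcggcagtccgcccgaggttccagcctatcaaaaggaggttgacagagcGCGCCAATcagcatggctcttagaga
Mki67 (chr7:135716380-135716529, minus strand): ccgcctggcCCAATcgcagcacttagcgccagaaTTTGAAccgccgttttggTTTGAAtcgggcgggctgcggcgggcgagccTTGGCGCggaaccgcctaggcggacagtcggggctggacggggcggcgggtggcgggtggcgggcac
In this stretch Mcm6 has E2F and CCAAT letters, and Ect2 and Mki67 have E2F, CHR and CCAAT letters. Rrm2, Bub1b and Ttk show only CCAAT letters here. Their longer windows add E2F letters for Rrm2 and CHR letters for Bub1b and Ttk.

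A feature of the control livers bears on every result below. Control 1 at 11 months and control 3 at 14 months were nearly identical, with a Pearson correlation of 0.995 over all probe sets and 63 probe sets more than 2-fold apart, although the labels give them different ages. These 2 livers also had high levels of cell cycle genes. Both lay above the other 3 controls for 42 of the 50 genes, against 17.8% of all genes. They lay above by at least 1 log2 unit for 17 of the 50 genes, 8 of S phase and 9 of mitosis, against 0.709% of all genes. Mcm6, a subunit of the replicative helicase, stood at 9.14 and 8.94 in these 2 livers and at 6.34, 5.13 and 6.51 in the others. Mcm5, another subunit of that helicase, stood at 8.68 and 8.52 against 5.76, 5.10 and 5.85. The 2 livers were kept, and results are also given without them.

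Across the 50 genes, levels in the tumours were mostly higher than in the controls, but few genes passed the test. With the 2 ages weighted equally, 47 of 50 genes had a positive change, with a median log2 fold change of 1.02 beside -0.05 over all genes. Only 5 genes rose and 0 fell at a limma adjusted p under 0.05, while 20.1% of all genes passed in either direction and 10.3% passed as higher. The 5 genes were Rrm2, Mki67, Ect2, Bub1b and Ttk, and 26 of the 50 had an unadjusted p under 0.05, beside 36.4% of all genes. By list, 1 of 18 S-phase genes, 3 of 28 mitosis genes and 1 of 4 genes of both phases rose. The share of 5 in 50 is close to the background for higher genes.

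**Figure D1:**
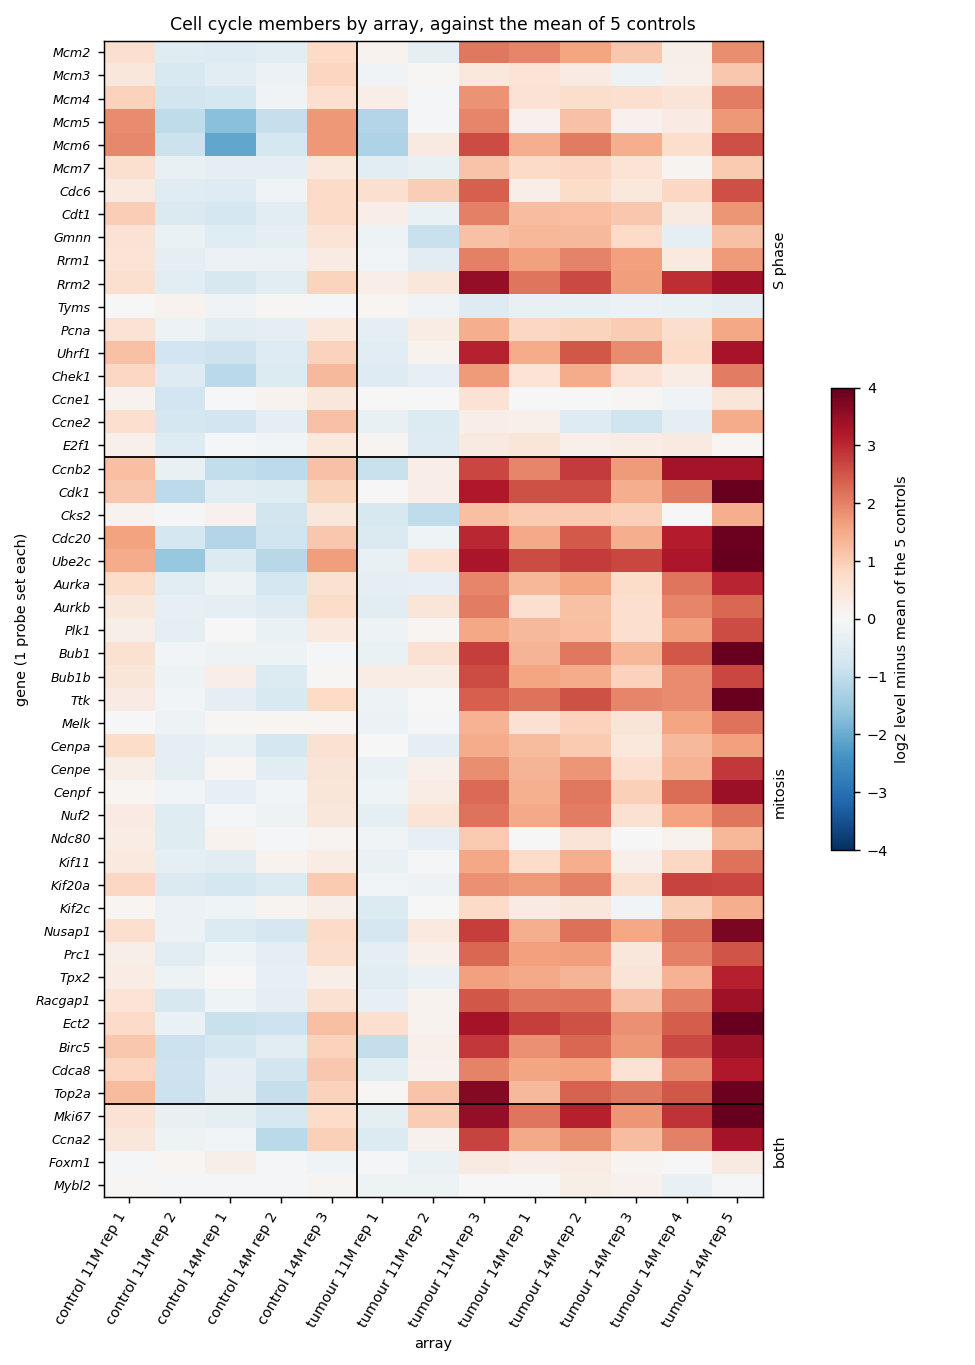
Log2 level of each of the 50 genes (rows, by S phase, mitosis and both) minus the mean of the 5 controls, in each of the 13 arrays (columns); differences of 4 or more take the darkest red. Tumour 3 at 11 months and the 5 tumours at 14 months are mostly red, tumours 1 and 2 at 11 months are pale, and control 1 at 11 months and control 3 at 14 months are the redder controls.

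Rrm2, the regulated subunit of ribonucleotide reductase that supplies deoxynucleotides, was the S-phase gene that rose. Its level was 7.48 and 6.40 in the controls at 11 months and 6.17, 6.37 and 7.70 in those at 14 months. In the tumours it was 7.08, 7.28 and 10.34 at 11 months and 8.96, 9.46, 8.50, 9.78 and 10.17 at 14 months. All 5 tumours at 14 months and 1 of 3 at 11 months lay above every control, and the other tumours lay within the control range. The log2 fold change was 1.96 ± 0.56 (SE; limma adjusted p = 0.0316), and at 14 months it was 2.63 ± 0.70 (limma adjusted p = 0.0306).

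Mki67, which encodes the Ki-67 protein present in cycling cells and used as a proliferation marker, rose by a similar size. Its level was 5.56 and 4.69 in the 11-month controls and 4.60, 4.35 and 5.73 in the 14-month controls. The 11-month tumours had 4.61, 6.00 and 8.50, and the 14-month tumours 7.13, 8.09, 6.74, 7.88 and 9.05. One 11-month tumour lay among the controls and the other 7 tumours lay above all of them. The change was 2.07 ± 0.62 with the ages combined (SE; limma adjusted p = 0.0364).

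Ect2, an exchange factor that activates RhoA for cytokinesis, was 4.71 and 3.66 in the 11-month controls and 3.06, 3.12 and 5.14 in the 14-month controls. It was 4.60, 4.09 and 7.26 in the 11-month tumours and 6.70, 6.50, 5.77, 6.35 and 8.03 in the 14-month tumours. The groups overlapped only through tumours 1 and 2 at 11 months. The change was 2.01 ± 0.60 (SE; limma adjusted p = 0.0376).

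Ttk and Bub1b encode proteins of the spindle assembly checkpoint. Ttk was 4.21 and 3.77 in the 11-month controls, 3.48, 3.27 and 4.68 in the 14-month controls, 3.69, 3.91 and 6.26 in the 11-month tumours and 6.05, 6.42, 5.85, 5.76 and 8.01 in the 14-month tumours. Its change was 1.62 ± 0.52 (SE; limma adjusted p = 0.0474). Bub1b was 5.10 and 4.41, 4.88, 4.07 and 4.67 in the controls, and 4.92, 4.93 and 7.22 in the 11-month tumours and 6.19, 6.10, 5.54, 6.53 and 7.31 in the 14-month tumours. Its change was 1.36 ± 0.42 (SE; limma adjusted p = 0.0422). For both genes tumours 1 and 2 at 11 months lay within the control range and the other 6 tumours above it.

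These calls depended on single arrays. The count of 5 became 1 without control 1 at 11 months, and 0 without control 2 at 11 months, control 1 or control 2 at 14 months or tumour 5 at 14 months. It became 20 without tumour 1 at 11 months, 3 without tumour 3 at 11 months, 2 without tumour 1 and 1 without tumour 2 at 14 months. The number of all genes that rose, 1872 with every array, moved too. It was 1421, 1413 and 1704 without control 1, control 2 and tumour 5 at 14 months. Without tumours 1 and 3 at 11 months it was 1993 and 1451, and without tumours 1 and 2 at 14 months 1692 and 1665. Without both nearly identical controls 1 gene passed as higher, Ube2c (3.35 ± 0.74, SE; limma adjusted p = 0.0294), beside 4.34% of all genes, while the median change of the 50 genes went from 1.02 to 1.49.

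**Figure D2:**
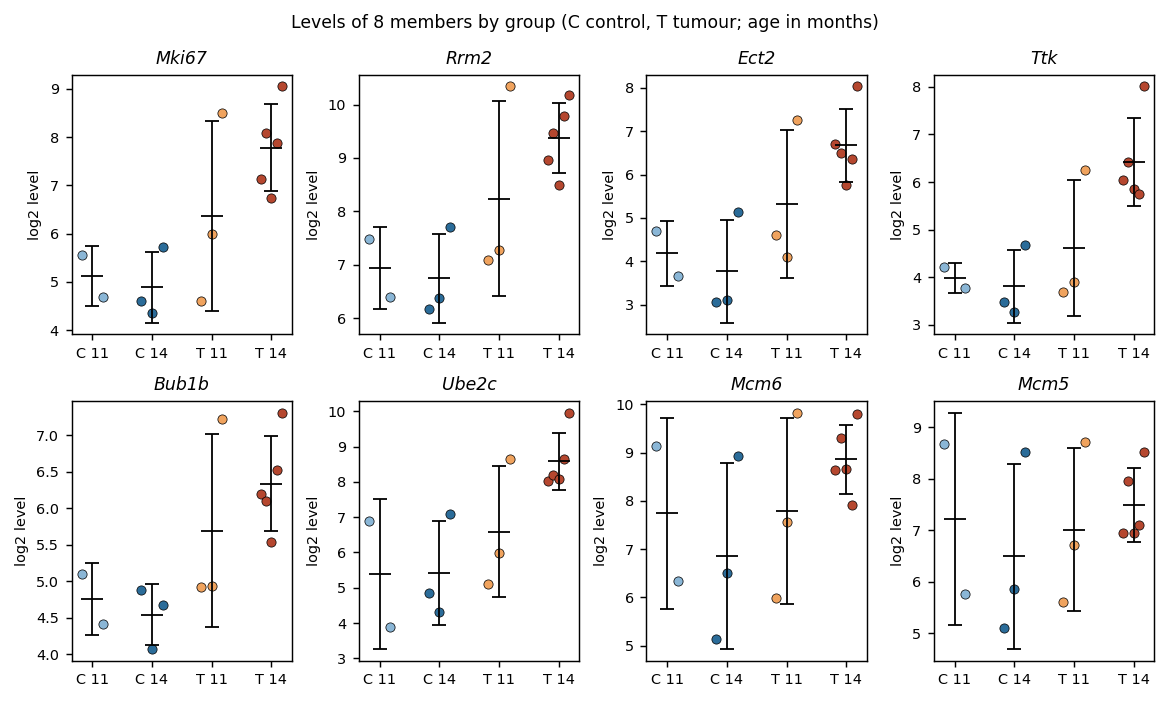
Log2 levels of 8 genes in each array, by group (C control, T tumour, age in months); the horizontal line is the group mean and the bar 1 SD. Levels of Mcm5 and Mcm6 in 2 of the controls reach those of the tumours, while for Ttk the 14-month tumours lie between 5.76 and 8.01, above all controls.

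Among the S-phase genes, the licensing and helicase genes had positive changes that did not pass. The 9 genes (Mcm2 to Mcm7, whose products form the helicase ring, Cdc6 and Cdt1, which load it, and Gmnn, which encodes the Cdt1 inhibitor geminin) ranged from 0.26 to 1.16, with 0 of 9 past the threshold and 1 of 9 at an unadjusted p under 0.05. Mcm6 had 5.98, 7.57 and 9.83 in the 11-month tumours and 8.65, 9.30, 8.67, 7.92 and 9.80 in the 14-month tumours. These tumours overlapped the controls, since the 2 nearly identical controls stood at 9.14 and 8.94, and the change was 1.03 ± 0.80 (SE; limma adjusted p = 0.368). Cdc6 was 4.55, 4.89 and 6.31 in the 11-month tumours and 4.18, 4.65, 4.35, 4.76 and 6.50 in the 14-month tumours, against 4.32, 3.44, 3.40, 3.74 and 4.70 in the controls (1.16 ± 0.45, SE; limma adjusted p = 0.0868).

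The genes of nucleotide supply, the fork and the S-phase checkpoint differed among themselves. Besides Rrm2, Uhrf1, which helps to copy DNA methylation at the fork, had a mean of 6.24 ± 1.35 in the tumours (SD, n = 8) and 4.65 ± 0.97 in the controls (SD, n = 5), a change of 1.43 ± 0.66 (SE; limma adjusted p = 0.143). Pcna, the sliding clamp of the polymerases, had 10.62 ± 0.62 and 9.83 ± 0.47 (SD, n = 8 and 5; limma adjusted p = 0.122). Tyms, thymidylate synthase, had the opposite sign (-0.25 ± 0.10, SE; limma adjusted p = 0.0897), but its probe set lay below the median signal of all probe sets, 5.167, on every array. The G1/S genes Ccne1, Ccne2 (cyclins E1 and E2) and E2f1 had changes of 0.18, -0.09 and 0.16, all with a limma adjusted p of 0.506 or more. The sizes depended on the probe set. Further probe sets above the median signal had 0.48 ± 0.22 for Ccne1 and 0.46 ± 0.21 for E2f1 (SE). Neither passed (limma adjusted p = 0.154 and 0.145, over all probe sets). The remaining E2f1 probe set, dimmer than that median, had -0.28.

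All 28 measured mitosis genes had a positive change with the ages combined, from 0.32 to 2.18, and 3 passed. Ube2c, the ubiquitin-conjugating enzyme of the anaphase-promoting complex, had the largest (2.18 ± 0.75, SE; limma adjusted p = 0.0602). It was 6.89 and 3.89 in the 11-month controls, 4.86, 4.31 and 7.09 in the 14-month controls, 5.11, 5.99 and 8.66 in the 11-month tumours and 8.02, 8.20, 8.08, 8.65 and 9.96 in the 14-month tumours. The 14-month tumours all lay above the controls, whose spread was wide (SD 1.49, n = 5). Cdk1, the mitotic kinase, had a mean of 9.01 ± 1.37 in the tumours and 7.0 ± 0.93 in the controls (SD, n = 8 and 5), a change of 1.84 ± 0.63 (SE; limma adjusted p = 0.0612). Top2a, which untangles sister chromatids, changed by 1.99 ± 0.66 (SE; limma adjusted p = 0.0549). Among kinetochore genes the changes ran from 0.32 for Ndc80 to 1.42 for Cenpf. Foxm1 and Mybl2, which encode the factors that switch on mitosis genes, had changes of 0.10 and -0.06, with limma adjusted p = 0.564 and 0.669. The Mybl2 probe set, like that of Tyms, lay below the median signal on every array, so its value does not show that the gene did not change.

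At 14 months 11 of the 50 genes rose and 0 fell, beside 8.37% of all genes that rose. They were 9 mitosis genes (Bub1, Bub1b, Ccnb2, Cenpf, Ect2, Nusap1, Racgap1, Ttk and Ube2c), Rrm2 and Mki67. The median change was 0.98 over the 18 S-phase genes, 1.83 over the 28 mitosis genes and -0.06 over all genes. Ube2c had the largest rise (3.16 ± 0.93, SE; limma adjusted p = 0.0432). Ccnb2, cyclin B2, rose by 2.92 ± 0.79 (SE; limma adjusted p = 0.0323), with 3.84, 3.80 and 6.00 in the controls and 6.80, 7.64, 6.54, 8.16 and 8.17 in the tumours of that age. Bub1, a checkpoint kinase, rose by 2.44 ± 0.70 (limma adjusted p = 0.0394), from 2.98, 2.98 and 3.12 in the controls of that age, a signal far below the median of all probe sets. Cenpf, of the kinetochore, rose by 2.02 ± 0.59 (limma adjusted p = 0.0413). Nusap1, which bundles spindle microtubules, rose by 2.38 ± 0.74 (limma adjusted p = 0.0499). Racgap1, which works with Ect2 in cytokinesis, rose by 2.16 ± 0.63 (limma adjusted p = 0.0412).

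In the 3 controls outside the nearly identical pair, 22 of 28 mitosis genes and 5 of 18 S-phase genes lay below that median. No detection call was used, so whether these control signals were above background is not known, and the sizes of such folds are uncertain.

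Of all 18193 genes 1523 rose at 14 months, and this number moved when single arrays were left out. It was 582, 577 and 722 without controls 1, 2 and 3 at 14 months. It was 1718 and 1845 without tumours 1 and 3 at 11 months. Without tumours 1, 2, 4 and 5 at 14 months it was 1083, 1077, 1955 and 1105. The count of 11 also depended on single arrays. It was 6 without control 1 or control 2 at 11 months or control 3 at 14 months, 0 without control 1 or control 2 at 14 months, 17 without tumour 1 and 28 without tumour 3 at 11 months, and 5, 2, 7 and 1 without tumours 1, 2, 4 and 5 at 14 months. Without both nearly identical controls 3 genes passed, Ccnb2, Ect2 and Ube2c, beside 2.84% of all genes that rose.

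At 11 months 0 of the 50 genes passed in limma, beside 1.31% of all genes that rose, and 0 had an unadjusted p under 0.05. Their median change was 0.48. The change at 14 months minus that at 11 months passed for 0 of 50 genes (0% of all genes; 0 of the 50 with an unadjusted p under 0.05), with a median of 1.08, so a difference between the ages was not shown. Tumours at 14 against 11 months gave 0 of 50 (0.0055% of all genes; 6 of the 50 with an unadjusted p under 0.05, beside 6.26% of all genes), with 47 of 50 positive and a median of 0.88. Controls at 14 against 11 months gave 0 of 50 (0% of all genes; 0 of the 50 with an unadjusted p under 0.05). The 11-month tumours include 2 near the controls and 1 far above them.

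**Figure D3:**
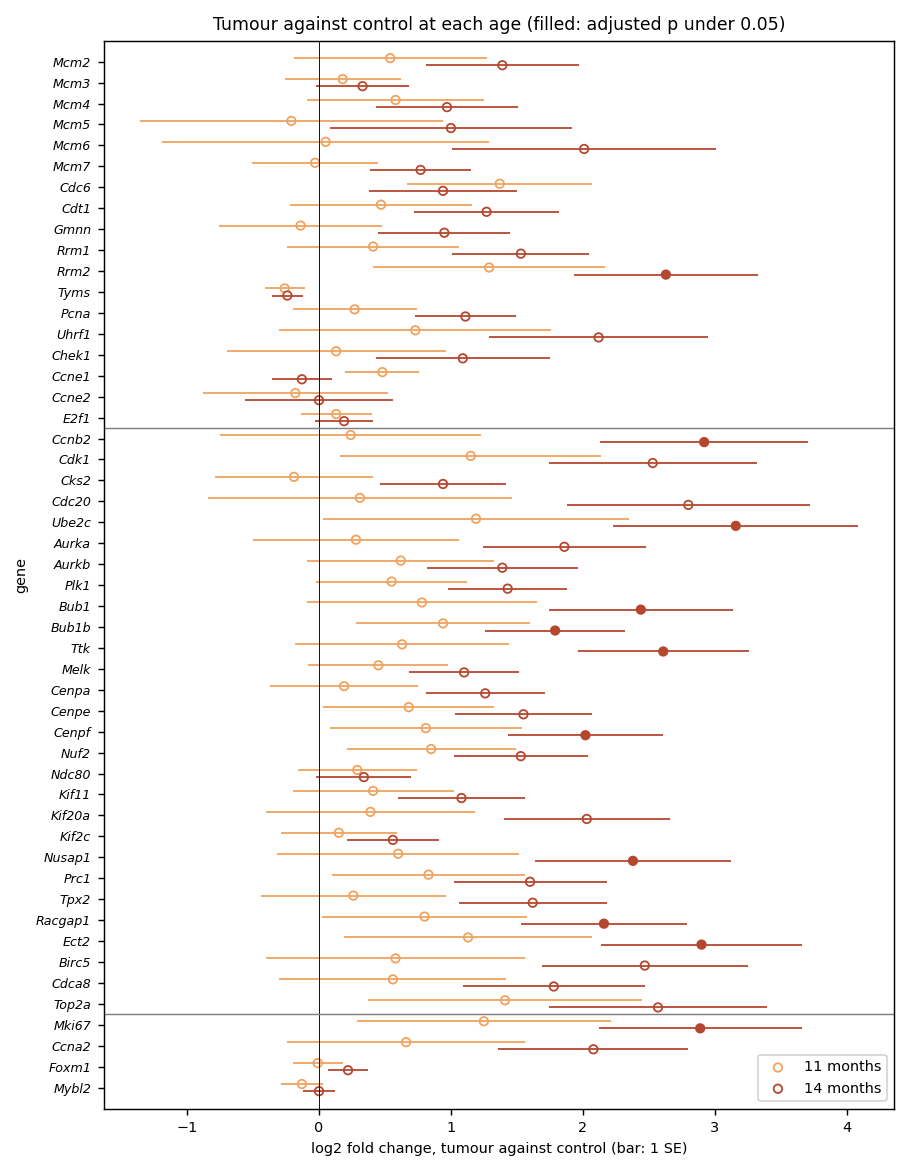
Log2 fold change of tumours against controls for each gene at 11 and at 14 months; bars are 1 SE and filled points have an adjusted p under 0.05. The 11 filled points are all at 14 months, and 9 of them are mitosis genes.

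Each tumour was scored as the mean over the genes of its log2 level minus the mean of the 5 controls. The tumours at 11 months scored -0.25, 0.05 and 1.93, and those at 14 months 1.21, 1.49, 0.88, 1.32 and 2.41. The controls scored 0.63 and -0.45 at 11 months and -0.42, -0.43 and 0.67 at 14 months. In all, 6 tumours thus lay above all controls, and tumours 1 and 2 at 11 months lay within the control range. Tumour 5 at 14 months was the highest. Over the 8 tumours the mean was 1.13 ± 0.90 (SD), and over the controls 0.00 ± 0.59 (SD, n = 5). Against the 3 controls outside the nearly identical pair, the lowest tumours scored 0.18 and 0.48.

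Counting genes above all 5 controls told the same tumours apart. Tumour 1 at 11 months had 0 of 50 such genes, while 25.1% of all genes were above all controls in it. Tumour 2 had 3 (21.5%) and tumour 3 had 45 (29.8%). At 14 months the tumours had 37 (30.3%), 42 (29.3%), 29 (29.6%), 31 (26.5%) and 46 (29.7%) of 50, with the share of all genes in brackets. No gene had all 8 tumours above all 5 controls, against 6.22% of all genes. Against the 3 other controls there were 14 such genes, against 8.74% of all genes: Mcm2, Mcm3, Mcm4, Cdc6, Cdt1, Rrm2, Uhrf1, Cdk1, Cdc20, Ube2c, Bub1b, Kif20a, Ect2 and Top2a. Of these, 7 belong to S phase and 7 to mitosis.

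The mitosis score lay above all controls in 6 of 8 tumours and the S-phase score in 4 of 8. This contrast rested on the nearly identical pair. With scores taken against the 3 other controls, all 8 tumours lay above those controls on both scores. The lowest tumour then had 0.33 for S phase and 0.13 for mitosis, and the highest of those controls 0.16 and 0.1. The S-phase scores were -0.18, -0.09 and 1.56 in the 11-month tumours and 0.85, 1.04, 0.67, 0.42 and 1.64 in the 14-month tumours, with controls from -0.65 to 0.78. The mitosis scores were -0.29, 0.12 and 2.22, and 1.47, 1.79, 1.01, 1.92 and 2.98, with controls from -0.48 to 0.64. The S-phase score minus the mitosis score was 0.11, -0.21 and -0.66 at 11 months and -0.62, -0.75, -0.34, -1.50 and -1.34 at 14 months. In the controls this difference ran from -0.33 to 0.14. In all, 6 tumours lay below that range, tumour 3 at 14 months by the smallest margin, and the mean over the tumours was -0.66 ± 0.54 (SD, n = 8). Tumour 4 at 14 months had a low S-phase score beside a high mitosis score. In it 3 of 18 S-phase genes but 26 of 28 mitosis genes were above all controls, beside 26.5% of all genes. Above the 3 controls outside the nearly identical pair lay 15 of 18 S-phase genes and 27 of 28 mitosis genes, so the low S-phase count rested on that pair. In the 2 nearly identical controls the S-phase scores were 0.74 and 0.78 and the mitosis scores 0.61 and 0.64, so there the S-phase genes were the higher. This was not particular to them. Control 2 at 14 months had a difference of 0.13 and tumour 1 at 11 months one of 0.11.

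**Figure D4:**
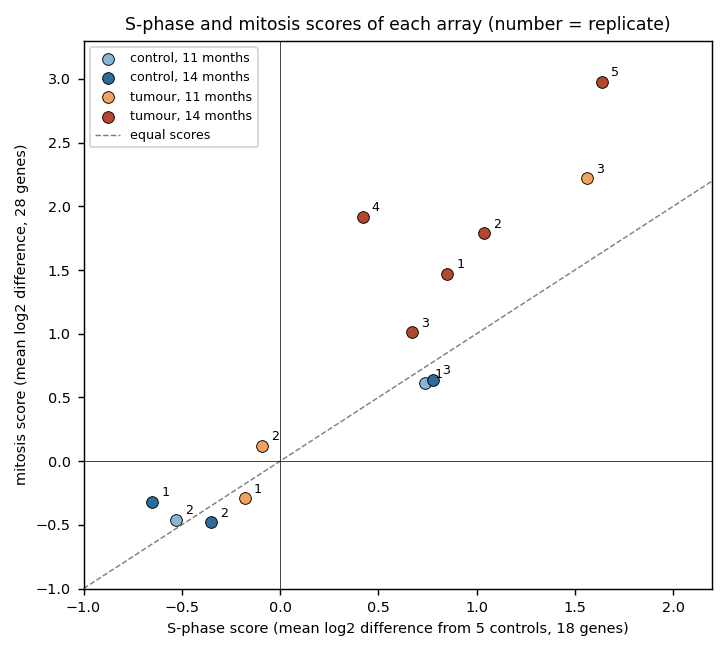
Mitosis score against S-phase score of each array, both in log2 units from the mean of the 5 controls, with replicate numbers and a dashed line of equal scores. Tumour 3 at 11 months and the 14-month tumours lie above the line with mitosis scores from 1.01 to 2.98, tumours 1 and 2 at 11 months lie near 0, and the 2 nearly identical controls lie together below it. Control 2 at 14 months and tumour 1 at 11 months also lie below the line.

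The signal of the probe sets differed between the lists. The mean level lay above the median of all genes for 12 of 18 S-phase and 7 of 28 mitosis genes. With only such genes the mean S-phase minus mitosis difference of the tumours was -0.68, and with each gene's probe sets averaged it was -0.43. Of 65 further probe sets of these genes, 47 had the sign of the one used and 18 the opposite sign, of which 17 had a mean below the median signal. For Cdca8, of the chromosome passenger complex, a dimmer probe set passed (1.17 ± 0.37, SE, limma adjusted p = 0.0474). The one used did not (1.17 ± 0.55, SE, limma adjusted p = 0.156). Both p-values are adjusted over all 34945 probe sets that name 1 gene.

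Other cell cycle genes, from further lists, were measured beside these. Of 57 other mitosis genes 7 rose and 0 fell with the ages combined (median change 0.70), a share near the 10.3% of all genes that rose. They include Anln, a scaffold of the cleavage furrow (1.74 ± 0.54, SE; limma adjusted p = 0.0439). Of all 18193 genes 1785 fell, and of 35 other replication genes 0 rose and 1 fell (median 0.01). The latter was Mcm10, a replication initiation factor, at 10.53 ± 0.48 in the controls and 8.65 ± 1.19 in the tumours (SD, n = 5 and 8; change -1.87, limma adjusted p = 0.0413). Without the nearly identical controls the changes of Anln and Mcm10 were 2.10 and -1.77, with adjusted p = 0.104 and 0.186, and each passed in 3 of 13 fits that leave out 1 array. Ncapg2, of the condensin II complex, passed with them (1.37 ± 0.42, SE, limma adjusted p = 0.0423) and without them (1.96, adjusted p = 0.0361). It was the one gene of the other mitosis genes to pass without them. With 1 array left out, Ncapg2 passed in only 4 of 13 fits, with an adjusted p of up to 0.187.

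Some genes that restrain the cycle also rose. Of 19 CDK inhibitors and p53 arrest genes 6 rose and 0 fell, beside 10.3% of all genes that rose. Ccng1, cyclin G1, a p53 target, was 8.79 and 8.26 in the 11-month controls, 8.42, 8.31 and 9.03 in the 14-month controls, 9.69, 10.02 and 10.47 in the 11-month tumours and 9.85, 10.10, 9.94, 10.17 and 10.80 in the 14-month tumours. All tumours lay above all controls, also those with low proliferation scores (1.56 ± 0.21, SE; limma adjusted p = 0.000812). Cdkn1a, which encodes the CDK inhibitor p21, rose by 2.07 ± 0.40 (limma adjusted p = 0.00563), from 7.74, 6.01, 7.59, 5.65 and 7.46 in the controls to 9.20, 8.35, 8.81, 9.61, 9.44, 8.53, 8.59 and 9.45 in the tumours, which did not overlap. Cdkn2c, which encodes the CDK4 and CDK6 inhibitor p18, rose by 1.40 ± 0.22 (limma adjusted p = 0.00186). These 3 calls held without the nearly identical controls, with adjusted p = 0.00439, 0.012 and 0.00235. All tumours were also mir-122 knockouts, and the part of p53 or of the missing microRNA in these rises was not tested.

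Of 14 D-type cyclin and G1 kinase genes 4 rose and 0 fell, beside 10.3% of all genes that rose. Cdc25a, a phosphatase that activates CDKs, rose by 1.24 ± 0.29 (SE; limma adjusted p = 0.0135), Ccnd3 by 1.06 and Cdc25b by 1.02. Without the nearly identical controls these 3 changes were 1.29, 1.09 and 1.17, with adjusted p = 0.0734, 0.173 and 0.0856. Ccnd1, cyclin D1, had a change of 1.62 ± 0.59 (SE; limma adjusted p = 0.0707). Its highest levels were 10.72 and 9.96 in tumours 1 and 2 at 11 months, which had low proliferation scores, and 11.01 in tumour 4 at 14 months. Myc had a change of 0.42 ± 0.66 (SE; limma adjusted p = 0.67) with a control SD of 1.80 (n = 5), with 10.22 and 9.62 in the nearly identical pair; without that pair it was 1.85 (limma adjusted p = 0.0188). Of 17 pocket protein, E2F and DREAM genes 2 rose and 1 fell, beside 10.3% of all genes that rose and 1785 of 18193 that fell. As a list they thus did not stand out from all genes. Rbl1, which encodes the pocket protein p107, rose by 1.51 ± 0.35 (limma adjusted p = 0.0134), also without the nearly identical controls (2.06, adjusted p = 0.0144). Rbl2, which encodes p130 of the DREAM complex, fell by 0.56 on the log2 scale (limma adjusted p = 0.0484). Without those controls its change was -0.59 (adjusted p = 0.164), and it passed in 2 of 13 fits that leave out 1 array.

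Markers of the cell types in a liver sample moved with the groups in part, and in bulk tissue fewer cells of a type and less RNA per cell cannot be told apart. The counts of markers below stand beside 10.3% of all genes that passed as higher and 1785 of 18193 that passed as lower. The summed hepatocyte markers, on the log2 scale, ran from 16.78 to 16.87 in the controls and from 16.47 to 16.82 in the tumours. By these sums the labelled tissue carried its defining markers in every array. Tumours 1 and 2 at 11 months had 16.80 and 16.82, and the other tumours had 16.47 to 16.75, below every control. That 0 of 8 passed does not show that these genes were unchanged. The summed neutrophil markers ran from 8.06 to 8.95 and from 9.25 to 11.62, with 3 of 8 higher, while Mpo, Ngp and Camp were below the median signal on all arrays. The summed cholangiocyte and progenitor markers ran from 7.61 to 8.12 and from 9.03 to 10.89, with 1 of 7 higher. Krt7 and Cftr were below the median signal on all arrays. The first 3 genes of that list, Krt7, Krt19 and Epcam, had changes of 0.14, 0.06 and -0.04 (limma adjusted p = 0.673, 0.924 and 0.826). The higher sum was thus carried by other genes of the list. Stellate cell and fibroblast markers (11.47 to 12.10, and 11.45 to 13.98) had 4 of 9 higher and 1 lower. Macrophage markers (12.34 to 12.67, and 11.76 to 13.60) had 3 of 10 higher, and endothelial markers (10.87 to 11.20, and 10.10 to 11.40) 3 of 9 higher. The endothelial sum nonetheless lay below every control in tumour 3 at 11 months (10.62) and tumours 1, 2 and 5 at 14 months (10.72, 10.75 and 10.10). It lay above every control only in tumour 2 at 11 months (11.40). Lymphocyte markers (8.54 to 8.84, and 8.58 to 9.40) had 0 of 10 past the threshold, and erythroid markers (9.79 to 10.61, and 8.21 to 11.29) 1 of 6 lower. The part of these cell types in the cell cycle levels was not tested.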

How the data were processed

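Messenger RNA from 8 knockout tumours and 5 wild-type livers was measured on one-colour Affymetrix arrays. The deposited values are on the log2 scale, made by the authors with RMA in Partek software, per the submitters' processing notes; its version is not given in the sources used here, and the log base was read from the values. Array medians lay between 5.127 and 5.218. The labels give group and age, while replicate numbers follow accession order.

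Of 45101 probe sets 34945 name 1 gene, 932 several and 9160 none, and 64 are array controls. Each of 18193 genes was represented by its probe set of highest mean, without a filter on level. One linear model held all 13 arrays and 4 group means (limma 3.58.1, R 4.3.3, lmFit and eBayes). The Benjamini-Hochberg adjustment ran over all genes, or over all probe sets where these were tested, at a threshold of 0.05. With ages combined, both ages weigh equally, so a change can differ from the difference of printed means. Named are all measured genes of the list and the first 3 measured genes of each marker list. Also named are up to 3 rises and 3 falls past the threshold in each further cell cycle list, with Ccng1, Cdkn1a, Ccnd1 and Myc. The text gives examples, and gives markers mostly as sums of linear levels per list. Cdca8's dimmer probe set, the further probe sets of Ccne1 and E2f1, and marker genes below the median signal were named after their values were seen. Scores and promoter motifs were described without a test. The members, lists, tests and alternatives were chosen with earlier results of these data known. One further alternative, no age term with the nearly identical controls averaged, was added after seeing the data. The fit was tested on simulated data. Precision is limited by the 2 to 5 arrays in a group. Tables used Python 3.11.15 with pandas 2.3.3, and figures matplotlib 3.10.9.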

Additional observations from a re-analysis of the deposited data

Results flagged for a closer look

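Among the levels of the 50 genes, 7 of 162 groups of arrays held 1 array whose gap to its nearest neighbour was large for the range of its group, and chance gives about 1 in 20. Tumour 5 at 14 months stood high for Mcm4 (8.98) and Cdc6 (6.50) among the 14-month tumours, and for Ccne2 (6.21) among all tumours. Tumour 4 at 14 months stood low for Rrm1, the large subunit of ribonucleotide reductase, at 7.63 where the other 14-month tumours had 8.88 to 9.21. Tumour 2 at 11 months had the low E2f1 level among all tumours (5.50). Among the controls, control 1 at 11 months stood high for Bub1 (3.80) and control 2 at 11 months low for Melk (3.93).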

How the results depend on the processing

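The count of genes past the threshold moved with many choices. With the ages combined (5 as reported) it was 3 with each gene's probe sets averaged, 17 with array weights, 2 with tumours 1 and 2 at 14 months averaged, 1 without both nearly identical controls, 0 with only arrays that have numbered titles, 0 at an adjusted p under 0.01, 12 with no age term, and 8 with no age term and the nearly identical controls averaged, which was chosen after seeing the data. Leaving out each array gave 0 to 20. At 14 months (11 as reported) it was 36 with array weights, 3 with those tumours averaged, 3 without both nearly identical controls, 0 with only numbered titles, 0 at an adjusted p under 0.01 and 7 with only genes above the median level, and leaving out each array gave 0 to 28. At 11 months, for the change between ages, and for tumours or controls between ages it was 0 in every setting run. The cause was not tested. The mean tumour score ranged from 0.90 to 1.56 and the mean S-phase minus mitosis difference from -0.43 to -0.70.

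Signs turned for these values. With the ages combined, Ccne2 was 0.54, 0.25 and 0.16 (without both nearly identical controls, only numbered titles, and no age term with those controls averaged), Alb was -0.01 (array weights, no age term, and no age term with averaging), Mpo was 0.00 without both controls, and Epcam was 0.56, 0.06 and 0.04 (mean of probe sets, without both controls, only numbered titles). At 14 months Ccne1 was 0.09 and 0.04 (mean of probe sets, only numbered titles). Ccne2 was 0.03 with repeated quantile normalisation and with arrays shifted to 1 median, 0.11 with array weights, 0.04 with tumours averaged, 0.58 without both controls and 0.69 with only numbered titles. Mybl2 was 0.08, 0.03, 0.07 and 0.05 (repeated quantile normalisation, shifted medians, array weights, without both controls). The score of tumour 1 at 11 months was 0.18 without the nearly identical controls, and that of tumour 2 was -0.04 against controls of its age and -0.03 with only genes above the median level. Leaving out each array, signs turned with the ages combined for Alb (-0.02 to 0.02), Ccne1 (-0.06 to 0.41), Ccne2 (-0.43 to 0.25), E2f1 (-0.02 to 0.34), Epcam (-0.10 to 0.03), Krt19 (-0.24 to 0.31), Krt7 (0.00 to 0.24), Mcm3 (0.00 to 0.52), Mcm5 (-0.34 to 1.13) and Myc (-0.58 to 1.42). They turned at 14 months for Ccne2 (-0.39 to 0.58) and Mybl2 (-0.06 to 0.08), and at 11 months for Bub1 (-0.09 to 1.43), Ccnb2 (-0.76 to 1.02), Nusap1 (-0.37 to 1.35), Racgap1 (-0.05 to 1.39), Ttk (-0.19 to 1.09) and Ube2c (-0.31 to 2.70). Single genes at 11 months were followed for the 11 genes called at 14 months.

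Over all genes, the 3657 called with the ages combined became 1368 without both nearly identical controls, 1759 with only numbered titles, 1443 at an adjusted p under 0.01, 1224 at 2-fold or more and 6069 over all probe sets, and ranged from 1814 to 4359 with an array left out. At 14 months 2775 became 5659 with array weights, 874, 249, 657, 1199 and 4368 with the others, and 922 to 3537 with an array left out. At 11 months 349 became 35, 55 and 42 for the first 3, and 232 with tumours averaged, and 21 to 731 with an array left out. At 14 months the higher genes were 54.9% of those called and 44.5% with quantile normalisation repeated. No paired analysis was possible because the replicate numbers follow accession order and pair no samples.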
